A study of Mus musculus with 2 samples.

Results

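Eukaryotic translation initiation factors are the proteins that bring the small ribosomal subunit, the initiator tRNA and the messenger RNA together at the start codon. Their genes were taken here as all rows of the gene count table whose symbol is Eif followed by a number and a subunit letter or letters, without Eif2s3y and without the eIF2 kinase and eIF4E-binding protein genes, which gave 46 of 24532 genes. The samples were myofibroblasts of the heart, the contractile cells that fibroblasts become in injured tissue and that lay down scar matrix, isolated from C57BL/6 mice 3 days after myocardial infarction. One library came from cells transfected with an siRNA against Bcat1 (siBcat1) and 1 from cells transfected with a control siRNA (siControl), each siRNA at 12.5 nM with 72 hours of culture afterwards. Bcat1 encodes the cytosolic aminotransferase of branched-chain amino acids. Each siRNA was a single product, the mice behind each library are not described, and both libraries come from cells given transfection reagent and siRNA, with no untransfected library.

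With 1 library per group there are no replicates, no test between groups and no p-value in what follows. Library totals were 104581819 counts in siBcat1 and 127309329 in siControl. Values in square brackets are 95% intervals of counting error only, which hold no spread between cultures and take reads as independent, which PCR copies are not. Bcat1 itself had 99 counts in siBcat1 and 8891 in siControl, a log2 fold of -6.11 [-6.41 to -5.83]. All 12 listed fibroblast markers exceeded 5 CPM (counts scaled by library size) in at least 1 library, with a summed level of 22284 CPM in siBcat1 and 35704.5 CPM in siControl. The largest differences were those of Col1a1 (4345 and 11058 CPM) and Col1a2 (3919 and 9535 CPM). Vim (6985 and 4724 CPM) and Thy1 (141 and 90.9 CPM) were higher in siBcat1, and the other fibroblast markers were lower there, some only slightly. The 10 listed leukocyte markers summed to 28.8 CPM in siBcat1 and 10.3 CPM in siControl, most of it Lyz2 (21.3 and 5.46 CPM). Cd14 had 3.22 and 1.54 CPM, Cd68 1.53 and 0.502, and Csf1r 2.69 and 2.82. Ptprc, Adgre1, Cd3e, Ms4a1 and S100a8 were at 0 in both. The 8 cardiomyocyte markers summed to 10.5 and 46.4 CPM, nearly all of it Tnnt2, with Myh6 at 0 in both. The 7 endothelial markers summed to 51.2 CPM in siBcat1 and 48.7 CPM in siControl, and the 6 pericyte and smooth muscle markers to 46.8 and 48.6 CPM. The part of these cells in the results was not tested, and in bulk RNA a smaller share of a cell type and less RNA per cell cannot be told apart.

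Initiation runs through a fixed order of complexes. The GTP-bound factor eIF2 carries the initiator tRNA to the small subunit, where eIF1, eIF1A, eIF3 and eIF5 assemble with it, and eIF2B reloads eIF2 with GTP afterwards. The cap-binding complex eIF4F, made of the cap-binding protein eIF4E, the scaffold eIF4G and the RNA helicase eIF4A, recruits the messenger RNA, and eIF5B joins the large subunit once the start codon is found. In fibroblasts that secrete much matrix, this machinery is where nutrient and stress signals act on protein output, through phosphorylation of eIF2 and release of eIF4E-binding proteins.

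Genes of the same complex lay at both ends of the order. Several subunit genes of eIF3 and the helicase gene Eif4a2 were the highest in siBcat1 relative to siControl, while the eIF3 subunit gene Eif3c, the eIF4G scaffold genes and Eif5a2 were the lowest. Of the 46 genes, 44 had a mean of at least 5 CPM. Of these, 8 were at least 1.5-fold higher in siBcat1 (Eif4a2, Eif3f, Eif3m, Eif3k, Eif3e, Eif3i, Eif1 and Eif1ax), beside 17.6% of the 9935 genes at this level. Another 4 were at least 1.5-fold lower (Eif5a2, Eif3c, Eif4g3 and Eif4g1), beside 25.6% of all genes, and 32 lay between. At 2-fold, Eif4a2 was higher and Eif3c and Eif5a2 lower, beside 5.58% and 13.0% of all genes. The higher share, 18.2%, was close to that of all genes, and the lower share, 9.09%, was smaller. The median log2 fold of the 44 genes was 0.28, with a range of -1.11 to 1.41, and that of all genes was -0.06.

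The sign of a small fold depended on the scale. With the deposited TPM values, which are scaled for transcript length and library size, the median of all genes was shifted by -0.46 on the log2(TPM + 1) scale. On that scale the median of the initiation factor genes was -0.22, and 13 of 44 were above 0, against 35 of 44 in scaled counts. Upper-quartile scaling shifted all folds by 0.13. Relative to the median of all genes, 36 of the 44 were higher on both of these scales and in scaled counts. A scaling factor moves every fold alike and length nearly cancels in a TPM ratio, so this count could hardly differ between them. With the trend on transcript length removed, as described below, 31 of 44 were above the median of all genes. With the length implied by counts and TPM it was 30 of 44. In TPM, 1 gene was at least 1.5-fold higher and 7 were lower, beside 3.56% and 46.5% of all genes, and with upper-quartile factors 14 were higher and 3 lower, beside 23.3% and 20.8%. The 12 genes past 1.5-fold in scaled counts had the same sign in TPM.

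**Figure D1:**
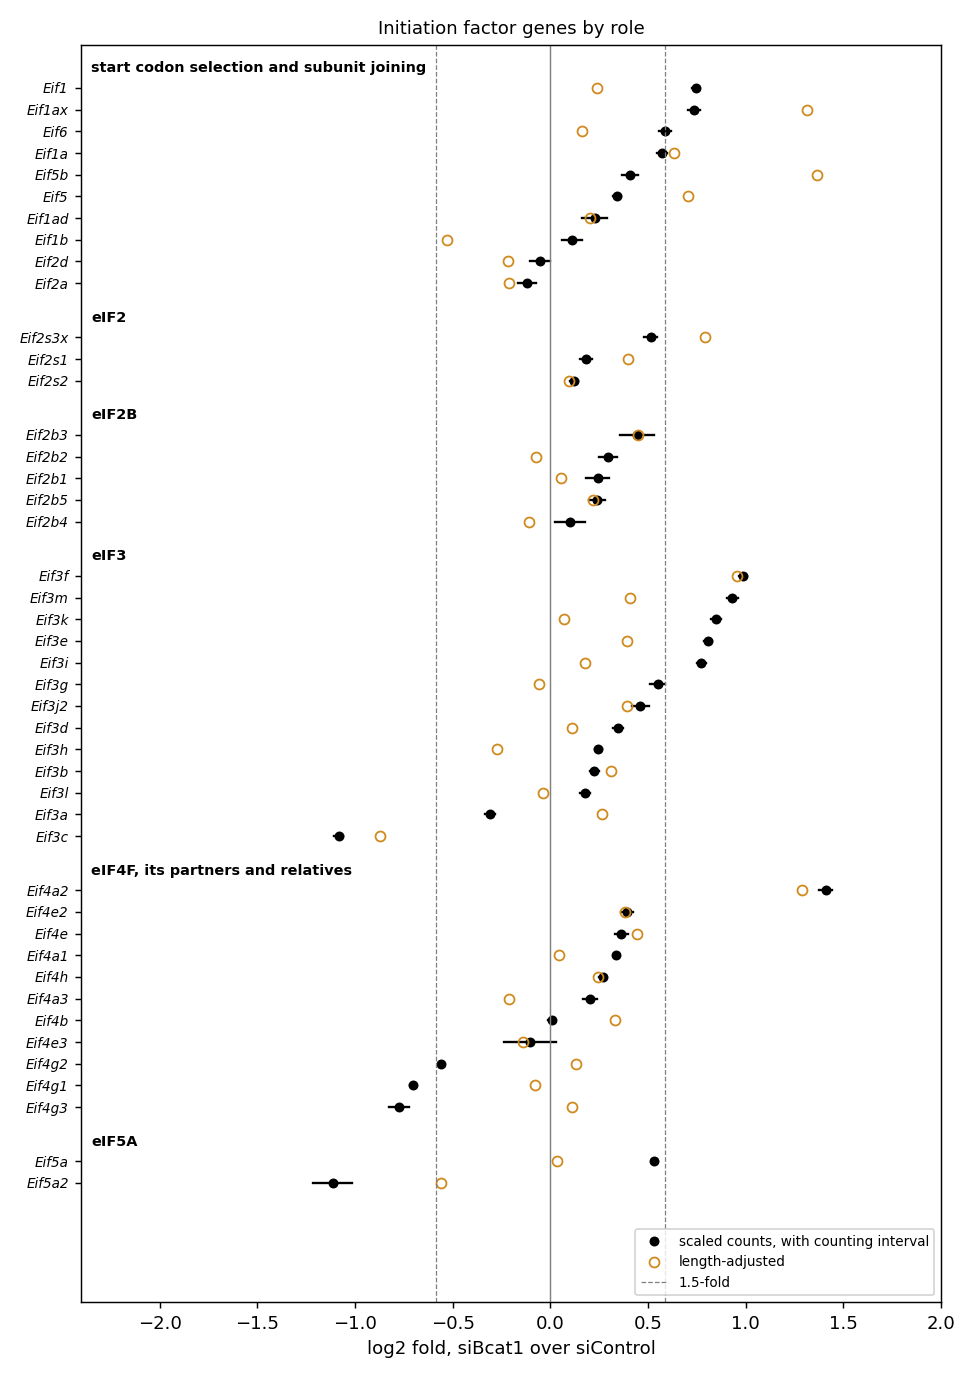
Log2 fold of siBcat1 over siControl for the 44 initiation factor genes with at least 5 CPM, grouped by role, with filled points for scaled counts (bars are counting intervals, often narrower than the point), open points after removal of the trend on transcript length, and dashed lines at 1.5-fold. Eif4a2 at 1.41 is the highest and Eif5a2 at -1.11 the lowest; the eIF4G genes lie left of 0 in scaled counts and near 0 after length adjustment.

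Transcript length went along with these folds, as it did over the whole table. Spearman's coefficient between fold and length was -0.44 over the 44 genes, beside -0.65 over the 9887 genes with a length. Pearson's coefficient, taken with log2 length, was -0.53 over the 44 genes and -0.61 over all. All points share the same pair of libraries, and these coefficients are descriptions. The length of the 44 transcripts had a median of 2514.5 bases and ran between 774 (Eif3k) and 7797 (Eif5b), beside a median of 2962 for all genes. When the lowess curve of fold on length was subtracted, which is called length-adjusted below, the median of the 44 genes was 0.17, beside 0.00 for all genes. Then 7 genes were at least 1.5-fold higher, beside 12.8% of all genes, and only Eif3c was at least 1.5-fold lower, beside 14.3%. The 7 were Eif5b, Eif1ax, Eif4a2, Eif3f, Eif2s3x, Eif5 and Eif1a, of which Eif1ax, Eif4a2 and Eif3f were among the 8 named before adjustment. With the transcript length that counts and TPM imply in place of the annotated length, Eif1ax had 0.05 and Eif3f 0.58, while Eif4a2 had 1.37.

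**Figure D2:**
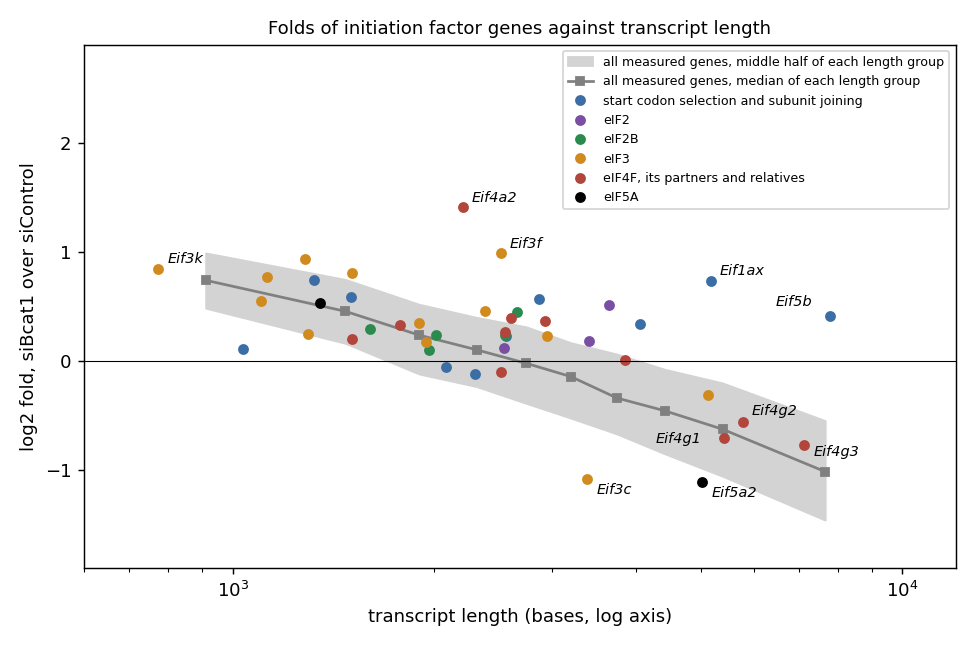
Log2 fold of siBcat1 over siControl against annotated transcript length (log axis) for the 44 initiation factor genes, coloured by role, over the median (squares) and interquartile range (band) of all measured genes in 10 length groups. Median folds of all genes run between 0.74 in the shortest group and -1.01 in the longest; Eif4g1, Eif4g2 and Eif4g3 lie near that trend, Eif4a2, Eif3f, Eif1ax and Eif5b lie above it, and Eif3c and Eif5a2 lie below it.

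Promoter sequence is shown for 7 of the genes with the largest folds in either direction, because a run of pyrimidines beginning with C at the transcription start (the 5′TOP element) is known from mRNAs of ribosomal proteins, elongation factors and some initiation factors, whose translation mTORC1 controls. Each sequence is 80 bases of RefSeq (GRCm38.p6), 5′ to 3′ on the gene's strand, with 50 bases before the annotated start and 30 from it on. The RefSeq start used can differ from the GENCODE gene start given below. It lies far inside the gene for Eif4g1, a shorter way inside it for Eif4a2, Eif3m and Eif3c, and upstream of it for Eif3k. Runs were sought only around the RefSeq start. Capitals mark a run of at least 6 pyrimidines whose first 6 bases all lie within 10 bases of that start. The run is counted from its first C there. An unmarked gene may have a run near its GENCODE start. In the stretches printed here, Eif3c has an unmarked run just after its GENCODE start. Eif3k has an unmarked run that ends just before its own.
Eif4a2, chr16:23107418-23107497, plus strand: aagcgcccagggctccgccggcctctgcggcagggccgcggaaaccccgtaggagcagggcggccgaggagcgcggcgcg
Eif3f, chr7:108934365-108934444, plus strand: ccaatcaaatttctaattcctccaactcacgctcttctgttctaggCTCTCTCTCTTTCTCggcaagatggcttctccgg
Eif3m, chr2:105016998-105017077, minus strand: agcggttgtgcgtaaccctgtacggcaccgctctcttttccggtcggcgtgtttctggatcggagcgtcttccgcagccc
Eif3k, chr7:28981859-28981938, minus strand: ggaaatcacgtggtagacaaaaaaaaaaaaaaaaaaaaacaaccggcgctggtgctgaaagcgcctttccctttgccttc
Eif3c, chr7:126566337-126566416, minus strand: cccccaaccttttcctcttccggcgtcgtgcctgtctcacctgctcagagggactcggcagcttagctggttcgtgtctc
Eif4g1, chr16:20672677-20672756, plus strand: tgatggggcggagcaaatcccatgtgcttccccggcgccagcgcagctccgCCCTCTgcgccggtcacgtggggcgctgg
Eif5a2, chr3:28781227-28781306, plus strand: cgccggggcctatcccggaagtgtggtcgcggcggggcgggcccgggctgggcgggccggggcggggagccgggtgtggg

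Eif3f holds an unbroken run of 15 pyrimidines at its start and Eif4g1 a run of 6, and these genes lie on opposite sides of 0. Such a run was found in 6 of the 36 initiation factor genes with a RefSeq promoter (16.7%), namely Eif2b5, Eif2s3x, Eif3f, Eif3l, Eif4e and Eif4g1, and in 18.9% of the 8037 measured genes with one. The share was 17.4% of all 27025 genes with a promoter. In the whole 300-base window, on either strand, CACGTG occurred in 10 of 36 initiation factor genes (27.8%), in 12.4% of measured genes and in 8.09% of all genes with a promoter. CCGGAAG occurred in 13 of the 36 (36.1%), in 22.2% of measured genes and in 9.93% of all. The other motifs searched were GGGCGG in 28 of the 36 (77.8%, against 72.6% of measured and 38.2% of all genes), CCAAT in 12 (33.3%, against 43.3% and 41.1%), TATAAA in 3 (8.33%, against 8.09% and 15.7%), TGACGTCA in 0 (against 3.68% and 2.03%) and TGATGCAA in 0 (against 0.635% and 1.03%). Holders of CACGTG include Eif3f and Eif3k among the higher genes and Eif4g1 and Eif5a2 among the lower ones.

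The genes for start codon selection and subunit joining had a median log2 fold of 0.37 (-0.13 in TPM), with 2 of 10 higher by 1.5-fold or more and 0 lower. The higher share, 20%, was close to the 17.6% of all genes, and 25.6% of all genes were lower. After length adjustment 4 were higher and 0 lower, beside 12.8% and 14.3% of all genes. Eif1 encodes the factor that keeps scanning ribosomes from starting at poor codons (chromosome 11, 100319885 to 100322096, plus strand, in GRCm38 as for all positions below). It had 51829 counts in siBcat1 and 40173 in siControl, or 512 and 306 CPM, a log2 fold of 0.74 [0.72 to 0.76] with 0.24 after length adjustment. For Eif1, 25.6% of its 75-base words also occur in transcripts of other genes, so some of its reads may have been assigned elsewhere. Its paralogue Eif1b (chromosome 9, 120492232 to 120495330, plus strand) had 5281 and 6345 counts, or 52.1 and 48.3 CPM, a fold of 0.11 [0.06 to 0.16] with -0.53 after adjustment. On the scale per length, Eif1 was at 593 TPM in siBcat1 and 503 in siControl, and Eif1b at 83.1 and 109 TPM. The fold of Eif1b was smaller than that of Eif1 by a log2 difference of -0.63 [-0.69 to -0.58], a difference that no library scaling factor alters.

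The factor eIF1A, which works with eIF1 in scanning, has a pair of genes, Eif1ax and Eif1a, whose folds differed by 0.17 [0.13 to 0.20]. Eif1ax on chromosome X (159372178 to 159389928, plus strand) had 21477 counts in siBcat1 and 16748 in siControl, or 212 and 127 CPM, a fold of 0.73 [0.71 to 0.76]. Eif1a had 25898 and 22646 counts, or 256 and 172 CPM, a fold of 0.57 [0.54 to 0.60] and 0.63 after length adjustment. Per length, Eif1ax was at 335 TPM in siBcat1 and 285 in siControl, and Eif1a at 130 and 124 TPM. The length-adjusted value of Eif1ax was 1.32 with the annotated transcripts of 5172 bases and 0.05 with the shorter length implied by its counts and TPM, so it rests on which length is used.

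Eif5b, the GTPase of subunit joining (chromosome 1, 37998010 to 38055579, plus strand), had 9262 counts in siBcat1 and 9055 in siControl, a log2 fold of 0.41 [0.37 to 0.45]. At its transcript length the trend of all genes was -0.96, so its length-adjusted value of 1.36 was the highest of the 44. Rev1, which overlaps Eif5b on the opposite strand, had 1411 counts in siBcat1 and 1790 in siControl. Of the 75-base words of Eif5b transcripts, 16.6% also occur in those of other genes, first of all Rev1. Eif5, which activates GTP hydrolysis by eIF2 (chromosome 12, 111538016 to 111546752, plus strand), had 34610 and 35472 counts, a fold of 0.34 [0.32 to 0.36] and a length-adjusted value of 0.71. Eif6, which keeps the large subunit from joining too early, had 18419 and 15937 counts and a fold of 0.58 [0.55 to 0.62], just under 1.5-fold, with 0.16 after adjustment. The genes of the alternative initiator tRNA carriers were near 0, Eif2a at -0.12 (6477 counts in siBcat1 and 9121 in siControl) and Eif2d at -0.05 (5138 and 6910 counts). Strand use in counting is not stated, and Serp1, which overlaps Eif2a on the opposite strand, had 48920 counts in siBcat1 and 63313 in siControl, so the Eif2a value is uncertain. Eif1ad, which encodes a protein with an eIF1A-like domain, had 3703 and 4103 counts and a fold of 0.23, uncertain because Banf1 on the opposite strand had 21387 and 16929 counts.

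For eIF2 and its exchange factor eIF2B, all 8 genes lay between 0.10 and 0.51 in scaled counts. None passed 1.5-fold (Eif2s3x did with upper-quartile factors), beside 17.6% higher and 25.6% lower of all genes. In TPM 7 of these 8 were below 0, the exception being Eif2s3x at 0.01. The median of all genes in TPM was -0.52, and all 8 lay above it. Eif2s1 encodes the alpha subunit, whose phosphorylation by stress kinases blocks eIF2B. It had 17596 counts in siBcat1 and 20124 in siControl, a fold of 0.18 [0.15 to 0.21]. Eif2s2, the beta subunit, had 29058 and 34668 counts (0.12), and Eif2s3x, the tRNA-binding gamma subunit, 16915 and 15376 counts (0.51, with 0.79 after length adjustment). Of the 75-base words of Eif2s2 and Eif2s3x transcripts, 22.4% and 35.7% also occur in those of other genes. The catalytic eIF2B subunit gene Eif2b5 had a fold of 0.24 with 10239 counts in siBcat1 and 11255 in siControl. Its partner gene Eif2b3, the gamma subunit, had 0.44, and the regulatory subunit genes Eif2b1, Eif2b2 and Eif2b4 had 0.24, 0.30 and 0.10. Their length-adjusted values ran between -0.11 (Eif2b4) and 0.45 (Eif2b3), but with implied length Eif2b3 had 0.07. The Eif2b4 value, from 2446 counts in siBcat1 and 2962 in siControl, is uncertain, since Snx17 on the opposite strand had 17583 and 19677 counts.

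Subunit genes of eIF3, the largest initiation factor and the scaffold of the small-subunit complex, lay on both sides of the trend. The median of the 13 measured genes was 0.46 (0.17 length-adjusted, -0.04 in TPM), with 5 at least 1.5-fold higher, 1 lower and 7 between. The shares, 38.5% higher and 7.69% lower, stand beside 17.6% and 25.6% of all genes. After length adjustment 1 was higher (Eif3f) and 1 lower (Eif3c), beside 12.8% and 14.3% of all genes. Eif3c (chromosome 7, 126546455 to 126566411, minus strand), which with Eif3a forms the core that the other subunits attach to, had 19224 counts in siBcat1 and 52816 in siControl. This was 190 and 402 CPM, a log2 fold of -1.08 [-1.11 to -1.06], or 2.12-fold lower. Its transcript of 3383 bases has a trend value of -0.21, so the length-adjusted value was still -0.87. Per length it was at 96.2 TPM in siBcat1 and 289 TPM in siControl.

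Eif3a (chromosome 19, 60761117 to 60790658, minus strand), the largest subunit, had 21579 counts in siBcat1 and 34688 in siControl, or 213 and 264 CPM, a fold of -0.31 [-0.33 to -0.28] that became 0.26 after length adjustment. The difference between Eif3a and Eif3c was 0.77 [0.74 to 0.81] on the log2 scale. In TPM, Eif3a was at 60.1 in siBcat1 and 106 in siControl. Eif3c was thus 1.60 times as abundant as Eif3a in siBcat1 and 2.73 times in siControl.

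The other end of eIF3 was held by Eif3f and Eif3m. Eif3f (chromosome 7, 108934417 to 108942951, plus strand), a subunit with an MPN domain, had 47763 counts in siBcat1 and 31246 in siControl, or 471 and 238 CPM and 457 and 327 TPM, a fold of 0.99 [0.97 to 1.01] with 0.95 after length adjustment. The related MPN subunit gene Eif3h had 47393 and 51869 counts and a fold of 0.25 [0.23 to 0.26], with -0.27 after adjustment. The folds of the MPN pair lay apart. Against Eif3c, Eif3f was 4.75 times as abundant per length in siBcat1 and 1.13 times in siControl, a difference of folds of 2.07 [2.04 to 2.10].

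Subunits with a PCI domain, which form the arch of eIF3 together with the MPN pair, were Eif3a, Eif3c, Eif3e, Eif3k, Eif3l and Eif3m. Eif3m (chromosome 2, 104999656 to 105017080, minus strand) had 29102 counts in siBcat1 and 19792 in siControl (287 and 151 CPM, 342 and 254 TPM), a fold of 0.93 [0.91 to 0.96] with 0.41 after length adjustment. Of the 75-base words of Eif3m transcripts, 21.9% also occur in those of other genes. Eif3k (chromosome 7, 28971372 to 28981864, minus strand) had 28263 and 20384 counts (279 and 155 CPM, 481 and 380 TPM) and 0.85 [0.82 to 0.87], and its length-adjusted value was 0.07. Eif3e (chromosome 15, 43250058 to 43282719, minus strand) had 46964 and 34799 counts (464 and 265 CPM, 440 and 356 TPM) and 0.81 [0.79 to 0.83], with 0.39 after adjustment. Eif3l had 26476 and 30363 counts and 0.18, with -0.04 after adjustment. Of these 6 genes, 3 were at least 1.5-fold higher and 1, Eif3c, was lower, beside 17.6% and 25.6% of all genes. After length adjustment 0 were higher and 1 was lower, beside 12.8% and 14.3%.

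In the module of the b, g and i subunits, Eif3i (chromosome 4, 129591960 to 129600648, minus strand) had 35798 counts in siBcat1 and 27186 in siControl (353 and 207 CPM, 466 and 387 TPM), a fold of 0.77 [0.75 to 0.80] with 0.17 after length adjustment. Eif3g, which has an RNA recognition motif, had 11934 and 10579 counts and 0.55, with -0.06 after adjustment, and the scaffold gene Eif3b had 30602 and 33979 counts and 0.22. Eif3d, whose protein can bind the cap of some mRNAs in human cells, had 21251 and 21687 counts and 0.35. The loosely bound j subunit has 2 gene copies, Eif3j2 with 8081 and 7615 counts and Eif3j1 with 18 and 20 counts. Since 87.4% of the 75-base words of Eif3j2 transcripts also occur in those of other genes, first of all Eif3j1, the division of reads between the copies is uncertain, and their sum had a fold of 0.46 [0.42 to 0.51] (Eif3j2 alone 0.46, at 79.8 and 57.9 CPM, and 0.39 after adjustment).

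The spread of eIF3 subunit mRNA levels depended on how it was taken. Over the 13 measured genes the SD of log2 TPM was 1.20 in siBcat1 and 0.954 in siControl. The highest level was that of Eif3h, with 557 TPM in siBcat1 and 667 TPM in siControl, and the lowest that of Eif3j2, with 48.4 and 49.9 TPM, a ratio of 11.5 in siBcat1 and 13.4 in siControl. Summed over all eIF3 genes, TPM was 3619 in siBcat1 and 3586 in siControl.

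**Figure D3:**
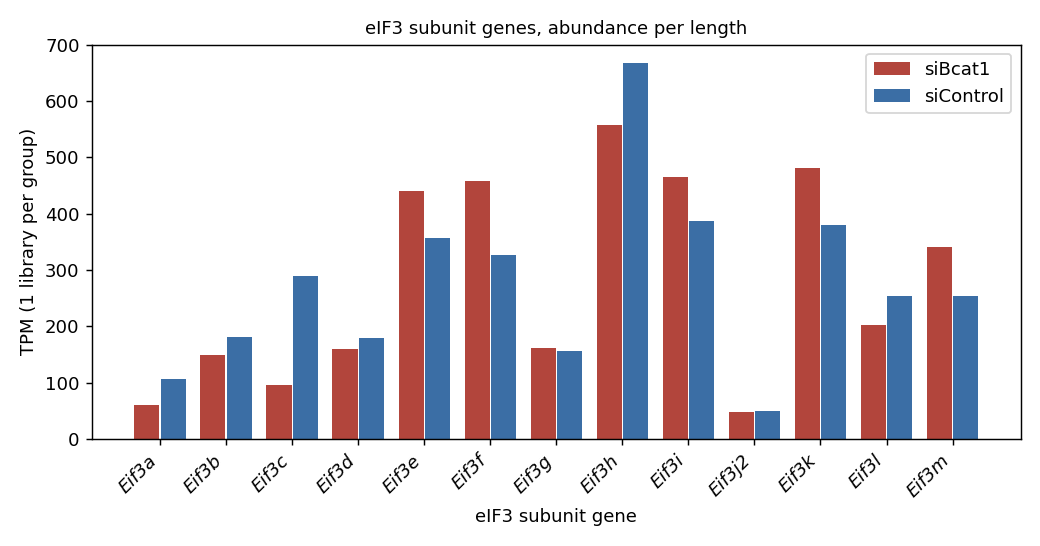
Deposited TPM values of the 13 measured eIF3 subunit genes in siBcat1 (red, left bar) and siControl (blue, right bar), 1 library each and therefore without error bars. Eif3c stands at 96.2 TPM in siBcat1 and 289 TPM in siControl, whereas Eif3e, Eif3f, Eif3i, Eif3k and Eif3m are higher in siBcat1.

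In eIF4F, the helicase gene Eif4a2 lay above 0 and the scaffold genes below it in scaled counts, with Eif4a1 and Eif4e close to each other between them. Eif4a2 (chromosome 16, 23107444 to 23114136, plus strand), one of a pair of closely related DEAD-box helicase genes, had 22229 counts in siBcat1 and 10860 in siControl, or 219 and 82.6 CPM. Its log2 fold of 1.41 [1.38 to 1.44], or 2.66-fold higher, was the highest of all 44 genes and stayed at 1.29 after length adjustment and 0.91 in TPM. Eif4a1 (chromosome 11, 69666936 to 69672423, minus strand), the main helicase gene, had 135881 and 139840 counts, or 1341 and 1064 CPM, a fold of 0.33 [0.32 to 0.35] with 0.05 after adjustment. Eif4a2 exceeded Eif4a1 in fold by 1.08 [1.04 to 1.11], and it made up 10.9% of the summed TPM of the pair in siBcat1 and 5.46% in siControl. Rfc4, which overlaps Eif4a2 on the opposite strand, had 2230 counts in siBcat1 and 2034 in siControl. For Eif4a1, 62.9% of its 75-base words occur in other annotated genes, pseudogenes included, so some of its reads may have been assigned elsewhere. Eif4a3, the related helicase of the exon junction complex, had 12661 and 14267 counts and a fold of 0.20, with -0.21 after adjustment.

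The scaffold genes were lower in scaled counts and in TPM, and near 0 after length adjustment. Eif4g1 (chromosome 16, 20668313 to 20692884, plus strand) had 44689 counts in siBcat1 and 94387 in siControl, or 441 and 718 CPM and 119 and 275 TPM, a fold of -0.70 [-0.72 to -0.69]. Eif4g3 (chromosome 4, 137993022 to 138208508, plus strand) had 4282 and 9500 counts, or 42.3 and 72.3 CPM and 9.98 and 24.3 TPM, and -0.77 [-0.83 to -0.72]. Eif4g2, a relative that lacks the eIF4E-binding part and serves cap-independent initiation (chromosome 7, 111067750 to 111083030, minus strand), had 70650 and 135251 counts (697 and 1029 CPM, 132 and 276 TPM) and -0.56 [-0.57 to -0.55]. Their transcripts have 5411, 7136.5 and 5771.5 bases, and the length-adjusted values were -0.08 for Eif4g1, 0.11 for Eif4g3 and 0.13 for Eif4g2. With implied length the values were -0.09, -0.03 and 0.37, so that of Eif4g2 depended on the length used. The 3 genes summed to 261 TPM in siBcat1 and 576 TPM in siControl, with 11.9 times as much Eif4g1 as Eif4g3 in siBcat1 and 11.3 times in siControl.

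The cap-binding genes Eif4e and Eif4e2 had similar folds in scaled counts, and this depended on the length used. Eif4e (chromosome 3, 138526179 to 138559696, plus strand) had 15367 counts in siBcat1 and 15502 in siControl, or 152 and 118 CPM, a fold of 0.36 [0.33 to 0.40]. Eif4e2 (chromosome 1, 87213914 to 87240488, plus strand), which encodes a cap-binding protein that represses translation, had 15917 and 15726 counts, or 157 and 120 CPM, and 0.39 [0.36 to 0.42]. The difference of the pair was 0.03 [-0.02 to 0.08], and after length adjustment Eif4e had 0.44 and Eif4e2 0.38. With implied length, Eif4e had 0.90, past 1.5-fold, and Eif4e2 0.37. Per length, Eif4e stood at 44.5 TPM in siBcat1 and 49.1 TPM in siControl, and Eif4e2 at 90.4 and 96.8 TPM, so Eif4e2 was 2.03 times as abundant as Eif4e in siBcat1 and 1.97 times in siControl. Eif4e3 had 794 and 1108 counts and -0.11 [-0.24 to 0.03]. Eif4e1b, a germ-line relative, had 0 counts in both libraries, where a count of 0 allows up to 0.0296 CPM in siBcat1 and 0.0228 CPM in siControl (3 counts). The ratio of Eif4g1 to Eif4e per length was 2.67 in siBcat1 and 5.60 in siControl. The helicase cofactor genes Eif4b and Eif4h had folds of 0.01 (41007 counts in siBcat1 and 52942 in siControl) and 0.27 (46512 and 50117 counts).

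Of the 7 related pairs measured against each other, the eIF5A pair lay furthest apart among those with both genes above 5 CPM. The protein eIF5A carries the amino acid hypusine and helps ribosomes through stalls in elongation and at termination, and Eif5a (chromosome 11, 69916714 to 69921958, minus strand) was the most abundant of the 46 genes. It had 176892 counts in siBcat1 and 159049 in siControl, or 1746 and 1210.1 CPM, a fold of 0.53 [0.52 to 0.54] with 0.03 after length adjustment. Eif5a2 (chromosome 3, 28781276 to 28798846, plus strand) had 1110 and 3116 counts, or 11.0 and 23.7 CPM, and the lowest fold, -1.11 [-1.21 to -1.01], with -0.56 after adjustment. The difference between Eif5a2 and Eif5a was -1.64 [-1.74 to -1.54]. Eif5a2 made up 0.167% of the summed TPM of the pair in siBcat1 and 0.523% in siControl.

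**Figure D4:**
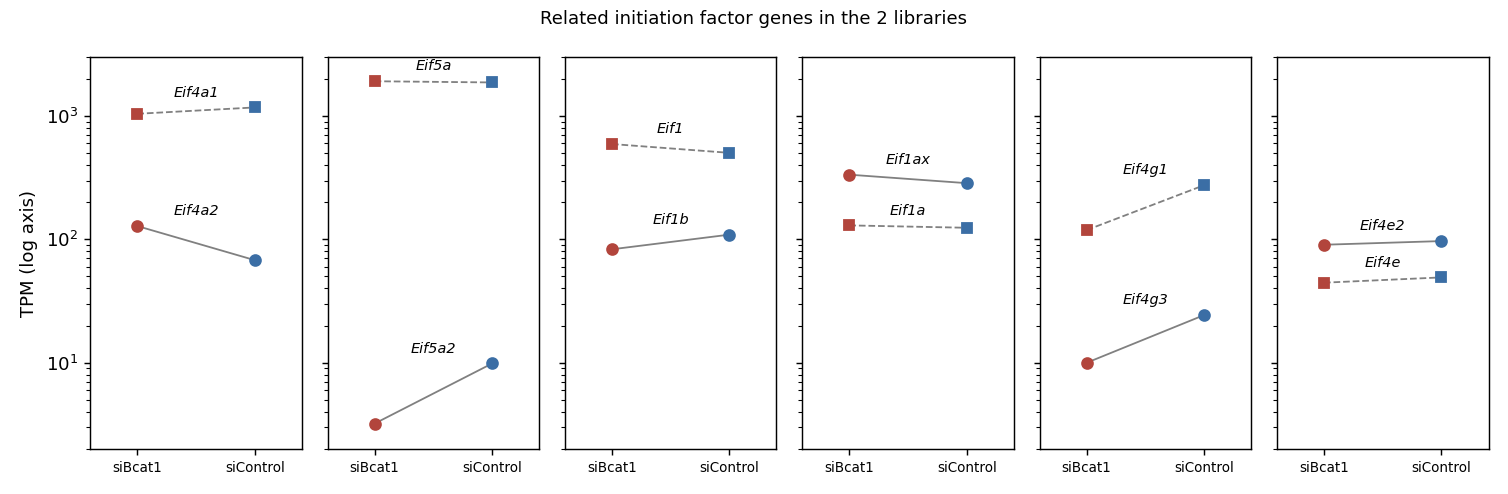
Deposited TPM values (log axis) of 6 pairs of related initiation factor genes in siBcat1 (left, red) and siControl (right, blue), 1 library each, with a solid line for one gene and a dashed line for the other. Eif4a2 is at 128 TPM in siBcat1 and 67.8 TPM in siControl beside 1043 and 1174 TPM for Eif4a1, and Eif5a2 is at 3.21 and 9.85 TPM beside 1915 and 1873 TPM for Eif5a.

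Among genes that act on the initiation factors, the eIF2 kinase genes were all below 0 in scaled counts and in TPM. The medians of all genes were below 0 too, at -0.06 in scaled counts and -0.52 in TPM. Eif2ak2 lay close to both, with -0.59 in TPM, and after length adjustment it had 0.28. Eif2ak4 (GCN2, the sensor of uncharged tRNA) had 787 counts in siBcat1 and 2463 in siControl, a log2 fold of -1.27 [-1.39 to -1.15] with -0.71 after length adjustment. Eif2ak1 had -0.60, Eif2ak3 (PERK, the sensor of endoplasmic reticulum stress) -0.39 and Eif2ak2 (PKR, the sensor of double-stranded RNA) -0.14. The phosphatase subunit gene Ppp1r15b had 6900 and 17764 counts and -0.99 (-0.33 adjusted), whereas Nck1 and the GCN2 inhibitor gene Impact had 0.64 and 0.50. Of these 9 genes, 1 was at least 1.5-fold higher and 3 were lower, with a median of -0.31 and a length-adjusted median of -0.12. The lower share, 33.3%, stands beside 25.6% of all genes, and the higher share, 11.1%, beside 17.6%. After length adjustment 2 were higher and only Eif2ak4 was lower, beside 12.8% and 14.3% of all genes, with Eif2ak1 at -0.18.

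Of 14 measured genes for regulators of eIF4F and of poly(A)-binding protein, 3 were at least 1.5-fold higher and 3 lower, 21.4% each and near the 17.6% and 25.6% of all genes. Their median was -0.14 (0.25 after length adjustment). Eif4ebp2, one of the repressors that mTORC1 releases from eIF4E, had 933 counts in siBcat1 and 6476 in siControl, a fold of -2.42 [-2.52 to -2.32]. Its transcript is short, at 1422 bases, and its length-adjusted value was -2.88. Eif4ebp1 had 19760 and 19477 counts and 0.40, so 291 TPM of Eif4ebp1 stood beside 7.53 TPM of Eif4ebp2 in siBcat1 and 313 TPM beside 57.2 TPM in siControl. Mknk1, an eIF4E kinase gene, had 798 and 2338 counts and -1.18 (-1.20 adjusted). Pdcd4, whose protein inhibits the eIF4A helicase, had 4370 and 2224 counts and 1.35 [1.28 to 1.42], with 1.28 after adjustment, and Paip2 and Paip1, partners of poly(A)-binding protein, both had 0.93. Eif4ebp3 had 374 and 283 counts and lay below 5 CPM.

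Of the 6 genes for scanning helicases, recycling and reinitiation, the partners Mcts1 and Denr, which act in reinitiation, were higher with 1.75 [1.69 to 1.82] and 1.09 [1.05 to 1.14], and stayed at 0.98 and 1.01 after length adjustment. The scanning helicase gene Dhx29 was lower with -0.99 (-0.49 adjusted) and the recycling factor gene Abce1 had -0.33. Thus 2 of the 6 were at least 1.5-fold higher and 1 was lower, beside 17.6% and 25.6% of all genes. After adjustment 2 were higher and 0 lower, beside 12.8% and 14.3%. The hypusine enzyme genes Dohh and Dhps had 0.88 and 0.35, and after adjustment 0.44, under 1.5-fold, and -0.15. Elongation factor genes had a median of 0.64, with 3 of 6 measured genes higher by 1.5-fold or more (Eef1b2 at 1.60, Eef1d at 1.06 and Eef1g at 0.75), 1 lower (Eef2k at -0.62) and Eef2 at -0.21, beside 17.6% higher and 25.6% lower of all genes. After adjustment the median was 0.38 (0.13 in TPM without adjustment), with 2 genes higher and 0 lower, since Eef1g had 0.50 and Eef2k -0.50. Termination and rescue factors had a median of 0.22, with Pelo at 0.75, Hbs1l at 0.27, Gspt2 at 0.15 and Gspt1 at -0.22. Of these 5 genes, 1 (Pelo, 20%) was at least 1.5-fold higher and 0 were lower, beside 17.6% and 25.6% of all genes. After adjustment Pelo had 0.38, and 0 of the 5 passed 1.5-fold, beside 12.8% higher and 14.3% lower of all genes. The mitochondrial initiation factor genes Mtif2 and Mtif3 had -0.17 and 0.32.

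Set beside other parts of the translation machinery, the 82 measured cytosolic ribosomal protein genes had a median log2 fold of 1.09. Of these, 79 (96.3%) were higher by 1.5-fold or more and 0 lower, beside 17.6% and 25.6% of all genes, and their transcripts had a median of 799 bases. Rps9 at 1.77 and Rps27a at 1.60 were the highest of them, and Rpl15 at 0.50 and Rpl7l1 at 0.08 the lowest. Their length-adjusted median was 0.32, with 15 at least 1.5-fold higher and 0 lower, beside 12.8% and 14.3% of all genes. The 20 cytosolic tRNA synthetase genes had a median of 0.01, with 0 higher and 4 lower, a share under the 25.6% of all genes. After length adjustment 1 was lower, beside 14.3% of all genes, and the median was 0.04, their transcripts having 2782 bases at the median. Dars at 0.49 and Hars at 0.36 were the highest of the synthetase genes, and Iars at -0.95 and Wars at -1.10 the lowest, which after adjustment had -0.51 and -1.06. The initiation factor genes, with medians of 0.28 and 0.17, lay between these groups in both respects. Summed TPM of the ribosomal protein genes was 297292 in siBcat1 and 193906 in siControl, and that of the initiation factor genes 9732.5 and 10241.9. Summed CPM was 155086 and 72913.1 for the ribosomal protein genes, and 12189.3 and 10228.3 for the initiation factor genes. The direction of the summed initiation factor level thus depended on the scale. These are descriptions of 2 libraries, and the differences between the groups of genes were not tested.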

How the data were processed

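Stranded mRNA libraries were built with an Illumina kit, per the labels' protocols. Per the submitters' processing notes, the tools and build were FastQC, Trimmomatic, HISAT2, StringTie and mm10, with roles and versions unstated; strand use and the counting of mates are likewise not given. The deposited table holds raw read counts per gene, and TPM values come from the authors' own per-sample tables, as the file headers show.

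Counts were scaled with TMM factors from edgeR 4.0.16 in R 4.3.3 (0.969 for siBcat1 and 1.03 for siControl), so that 1 CPM equals 101 counts in siBcat1 and 131 in siControl. No test was made, because each group has 1 library, and genes were counted past 1.5-fold or 2-fold as a rule of size. Fold intervals are exact (Clopper-Pearson) 95% intervals on the binomial share that siBcat1 has in a gene's counts, and intervals of differences between genes are Wald intervals; both cover counting error only. Lengths were medians over GENCODE M21 transcripts (GRCm38, as mm10) matched by RefSeq accession, found for all 46 genes, and gene positions are from the same annotation. The lowess curve (fraction 0.3, 3 iterations, statsmodels 0.14.6) took up 37.4% of the variance of all folds. RefSeq promoters were found for 36 of the 46 genes by gene identifier. Shared 75-base words were counted on both strands over all annotated transcripts.

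Full values were given to the 6 highest and 6 lowest folds and to 7 pairs of related genes, and each other gene was named once. The promoters printed and the genes singled out by their length-adjusted values were chosen after values were seen. Genes, lists and alternatives were chosen with earlier results of these data known. The calculations were tested on simulated data. Other steps used Python 3.11.15 (pandas 2.3.3, numpy 2.4.6, matplotlib 3.10.9, scipy 1.17.1).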

Additional observations from a re-analysis of the deposited data

How the results depend on the processing

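With 44 genes, 8 higher and 4 lower at 1.5-fold and a median of 0.28, the counts stayed within 1.5 times these values and the median between 0.27 and 0.30 with DESeq2 1.42.0 size factors, a minimum of 1 or 20 CPM, no filter (prior count 0.5) and summed near-identical pairs. Library totals left the counts within that range and gave a median of 0.19. Upper-quartile factors gave 14 higher genes and a median of 0.41. TPM gave 1 higher gene, 7 lower genes and a median of -0.22 with a pseudocount of 1, and 1 higher, 8 lower and -0.22 with 0.1. Removal of the length trend gave 1 lower gene and a median of 0.17, and removal of the trend on implied length 1 lower gene and 0.15. At 2-fold there was 1 higher gene and there were 2 lower genes. Of the 8 higher and 4 lower genes, 3 and 1 were still past 1.5-fold after removal of the trend on annotated length, and 1 and 1 with implied length. Eif4g3 had 0.11 after removal of the trend on annotated length, the one change of sign among the 12. With 1 library per group, a length trend between libraries and an effect of the siRNA cannot be told apart, and depth limits only genes as low as Eif3j1. No paired analysis was possible because each group has 1 library, and for the same reason no replicate could be left out.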
